A study of Mus musculus with 8 samples.

Results

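MAflox cells are mouse bone marrow cells that carry the MLL-AF10 leukaemia fusion and are labelled "MLL-AF10 flox". They come from a series of 8 RNA-seq libraries, and the 4 MAflox libraries, 2 grown with EtOH and 2 grown with 4-OHT, are described here gene by gene. Both MAflox groups were C57BL/6 cells grown for 4 days in methylcellulose, a semi-solid medium, to which SCF, IL-3 and GM-CSF had been added, with 100 nM 4-hydroxytamoxifen (4-OHT, an active tamoxifen metabolite) or with ethanol, its solvent. The other 4 libraries are MATIP cells, which carry MLL-AF10, Tip60 flox/flox and Cre-ERT2, a Cre recombinase that 4-OHT releases into the nucleus. They had the same treatments, again 2 libraries a group, and enter here only where the responses are set side by side. The labels do not say which element is floxed in MAflox cells, whether these cells hold Cre-ERT2, or whether they are 1 clone. Nor do they say that libraries sharing a group are from different cultures, so each p-value measures only the spread between libraries, which may be technical. Of the 24421 genes in the count table, 13722 had enough reads to be tested.

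MLL fusions join the DNA-binding end of the MLL (Kmt2a) protein to a partner such as AF10 and hold genes of the HOXA and MEIS1 programme active, which keeps myeloid progenitors growing and holds back their maturation. Normal neutrophil precursors fill their granules in a fixed order: primary granule enzymes such as myeloperoxidase are made first, in promyelocytes, secondary granule proteins such as lactoferrin next, and tertiary granule and secretory vesicle proteins last. C/EBP epsilon is the transcription factor that secondary granule genes depend on, and the switch is normally accompanied by exit from the cell cycle and a smaller nucleolus.

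Levels are given as CPM, the reads of a gene scaled to a common library size. They are not divided by gene length, so they compare libraries and not genes. A gene was called when its adjusted p in edgeR's quasi-likelihood test was under 0.05, and "rose" and "fell" are used only of called genes. Fold changes are log2 differences, 4-OHT minus EtOH, ± SE, from 2 libraries against 2. The RNA is from whole cultures, so more cells of a type and more RNA per cell cannot be told apart.

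The response was broad. With 4-OHT 4548 genes rose (33.1% of those tested) and 4399 fell (32.1%), so that 65.2% were called, and 4775 were not. At least 2-fold, 1886 rose (13.7%) and 1138 fell (8.29%). At least 10-fold, 485 rose and 59 fell. Much of the excess of 2-fold rises lay in genes scarce with EtOH. In the lowest quintile by EtOH level (up to 0.938 CPM), 822 rose and 132 fell at least 2-fold. The filter on low counts used all 8 libraries, and genes near 0 with EtOH had little room to fall. With only genes at 1 CPM or more in at least 2 MAflox libraries kept, 1482 rose and 933 fell at least 2-fold. The median log2 change over all tested genes was 0.02. The 2 EtOH and the 2 4-OHT libraries did not overlap in 81.1% of the tested genes, with 4-OHT above in 41.4% and below in 39.7%. Total counts were 41101309 and 49261846 in the EtOH libraries and 49662437 and 45952820 in the 4-OHT libraries. The 20 most abundant genes of each library took 7.27% and 7.28% of the reads with EtOH and 11.3% and 11.7% with 4-OHT. Any gene group below has to be read against this background, in which about as many genes rose as fell.

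Kat5, which encodes the acetyltransferase TIP60 and is the gene floxed in MATIP cells, was present in all 4 MAflox libraries at 43.7 and 41.2 CPM with EtOH and 57.5 and 62.5 CPM with 4-OHT. The 4-OHT libraries were the higher ones, by a log2 difference of 0.50 ± 0.07 (adjusted p = 7.5e-06). Kat5 lies on chromosome 19 at 5603014 to 5610237 (mm10, minus strand) and shares 426 exon bases with Rnaseh2c on the other strand. Mllt10, which encodes AF10, fell from 91.8 and 94.7 CPM to 70.2 and 76.5 CPM (-0.35 ± 0.06, adjusted p = 8.38e-05). Kmt2a stood at 33.4 and 49.2 CPM with EtOH and at 21.4 and 16.2 CPM with 4-OHT, a fall of 1.13 ± 0.16 on the log2 scale (adjusted p = 2.91e-06). With the trends in gene length and GC content removed, the log2 difference of Kmt2a was -0.47. Counts per gene do not separate fusion transcripts from those of the normal Kmt2a and Mllt10 alleles.

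Secondary granule genes rose together. All 17 listed members passed the filter on low counts and all 17 rose, with a median log2 change of 6.47. Their summed level went from 627 and 612 CPM to 22638 and 22712 CPM. In the GRCm38.p6 assembly, 14 of the 17 had a RefSeq promoter window, 250 bases before the RefSeq gene start. Those of lactoferrin (Ltf, plus strand, chr9:111019042-111019270) and cathelicidin (Camp, minus strand, chr9:109849618-109849706) are shown without the bases inside the gene as GENCODE places it. This trimming took 21 bases from the Ltf window and 161 from the Camp window, leaving 229 and 89. They were chosen because both genes rose sharply and because Ltf holds a C/EBP-type match and Camp does not. Capitals mark the letters TTGCNNAA, a C/EBP half-site pair, on either strand.
Ltf: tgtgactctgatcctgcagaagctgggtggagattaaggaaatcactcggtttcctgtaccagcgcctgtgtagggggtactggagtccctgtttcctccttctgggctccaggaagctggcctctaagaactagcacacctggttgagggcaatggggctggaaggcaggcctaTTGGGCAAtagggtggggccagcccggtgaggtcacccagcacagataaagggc
Camp: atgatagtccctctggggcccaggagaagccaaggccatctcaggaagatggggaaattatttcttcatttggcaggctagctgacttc

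Distances are counted to the RefSeq gene start, at the end of the untrimmed window. The match in the Ltf window starts 75 bases before that start, a distance that includes the 21 trimmed bases. Another Ngp match, 11 bases before the RefSeq start but inside the gene as GENCODE places it (from 110419747), is not shown. For the other secondary granule genes with a match, 1 match each is shown with the 30 bases around it, 5′ to 3′ on the gene's strand, again with the match in capitals: Ngp (neutrophilic granule protein, plus strand, chr9:110419659-110419688, 138 bases before the RefSeq start), Lcn2 (lipocalin 2, minus strand, chr2:32387937-32387966, 216 bases) and Mmp8 (neutrophil collagenase, plus strand, chr9:7558399-7558428, 19 bases).
Ngp: gtcctggtttaTTGCCCAAacctccttgcc
Lcn2: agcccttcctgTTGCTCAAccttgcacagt
Mmp8: ttaggcagaagTTGCTCAAgatgtagcttt

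These 4 windows are 28.6% of the 14. The same letters are in 10.8% of all 27025 windows, in 9.20% of the 10391 windows of tested genes, in 13.8% of the 1417 windows of genes that rose at least 2-fold and in 7.31% of the 862 of genes that fell at least 2-fold. The letters AGAGGAAG, an ETS-type core bound by PU.1, were found on either strand in 3 of the 14 (21.4%) and in 4.87% of the windows of tested genes. An E-box (CACGTG) was in 2 of the 14 windows, a HOX and PBX site (TGATNNAT) in 1 and a MEIS site (TGACAG) in 4, against 9.61%, 4.62% and 16.7% of the windows of tested genes. All searches used the untrimmed windows, which can reach into the gene. The motifs were searched separately, so that they may overlap, and a match describes the letters only.

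Ltf, the iron-binding protein of secondary granules, was at 2.41 and 3.06 CPM with EtOH and at 2314 and 2580 CPM with 4-OHT (log2 9.79 ± 0.12, 887-fold, adjusted p = 2.06e-21). Camp, an antimicrobial peptide precursor, went from 4.29 and 4.14 to 1719 and 1774 CPM (8.70 ± 0.10, 414-fold). Ngp, which lies on the same chromosome as both, went from 40.4 and 38.1 to 11210 and 10587 CPM (8.12 ± 0.12, 278-fold). In each of these the libraries of a group lay close together and the groups were orders of magnitude apart, so that Ngp alone grew from 0.0043% and 0.0041% of all counts to 1.07% and 1.0%. Chil1, a chitinase-like protein, rose by 8.61 ± 0.13 from 0.409 and 0.304 CPM. Olfm4, a matrix glycoprotein stored in a subset of neutrophils, rose from 1.23 and 1.18 to 340 and 403 CPM (8.27 ± 0.17). Mmp8 rose from 25.1 and 24.6 to 115 and 115 CPM (2.21 ± 0.06), and the smallest rise in the list was that of Hp (haptoglobin), from 313 and 291 to 713 and 766 CPM (1.29). Cd177, a neutrophil surface protein, rose from 14.1 and 14.5 to 1971 and 2184 CPM, Lcn2 from 14.9 and 17.0 to 1444 and 1390 CPM, and Chil3 from 18.5 and 15.1 to 734 and 834 CPM.

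The primary granule genes did not share this rise. Of the 12 listed, all tested, 8 rose and 3 fell, with a median of 0.39, and their summed level was 17176 and 16782 CPM with EtOH against 16767 and 17009 CPM with 4-OHT. The list includes Calr, also a chaperone of the endoplasmic reticulum, which fell from 3737 and 3793 to 2105 and 2235 CPM. Without Calr, left out after its values were seen, the sum was 13439 and 12989 CPM with EtOH and 14662 and 14773 CPM with 4-OHT. Mpo, myeloperoxidase, fell from 4707 and 4632 to 1702 and 1731 CPM (-1.44 ± 0.05). Elane, neutrophil elastase, rose from 1852 and 1795 to 4241 and 4164 CPM (2.30-fold). Prtn3, proteinase 3, rose from 1429 and 1340 to 2046 and 1952 CPM (0.53 ± 0.06). Ctsg, cathepsin G, moved least, from 2406 and 2352 to 2081 and 2144 CPM (-0.17 ± 0.05, adjusted p = 0.00847); its call was lost without EtOH library 1 or without 4-OHT library 1, each at -0.15. Serpinb1a, an inhibitor of these proteases, rose from 801 and 780 to 1567 and 1751 CPM.

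**Figure D1:**
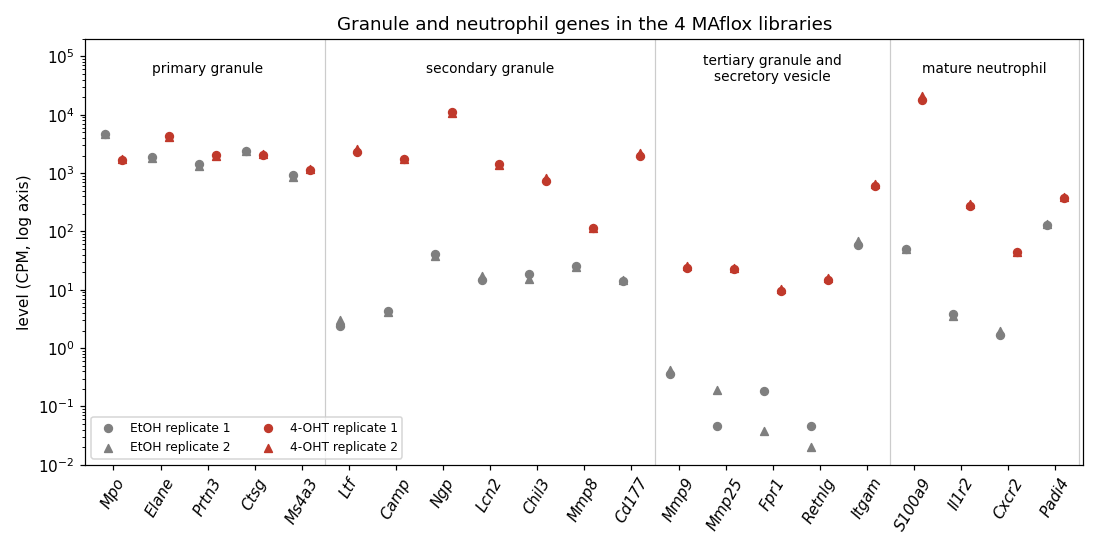
CPM on a log axis of named genes of 4 neutrophil gene groups in the 4 MAflox libraries, EtOH in grey and 4-OHT in red, 1 point a library (Retnlg had 0 counts in EtOH library 2 and is drawn at 0.02). The primary granule genes stay within about 3-fold, while the secondary granule, tertiary granule and mature neutrophil genes shown lie higher in both 4-OHT libraries.

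Later steps of the granule order rose as well. All 17 tested genes of tertiary granules and secretory vesicles rose, of 19 listed, with a median of 3.46 and a summed level of 537 and 550 CPM with EtOH and 5970 and 6199 CPM with 4-OHT. Lyz2, lysozyme, which is found in all granule types and in macrophages, took most of those reads with 4-OHT (136 and 134 CPM, then 4127 and 4323 CPM). Mmp9, the gelatinase that defines tertiary granules, was at 0.363 and 0.418 CPM with EtOH and at 23.3 and 25.3 CPM with 4-OHT (5.94 ± 0.15). Retnlg, a late neutrophil gene, had 0.0454 and 0 CPM with EtOH and 14.9 and 16 CPM with 4-OHT. Both of these late genes were under 1 CPM with EtOH. Their groups did not overlap, as was so with 4-OHT above in 41.4% of all tested genes.

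Of the 30 mature neutrophil genes, all tested, 29 rose and 1 fell, with a median of 2.41, or 2.25 with genes at 0 counts set to their bound. S100a9 and S100a8, the calprotectin subunits, took most of their reads with 4-OHT. S100a9 was at 49.6 and 50.5 CPM with EtOH and at 18006 and 21094 CPM with 4-OHT (8.61 ± 0.11), and S100a8 at 70.4 and 64.6 against 14206 and 14878 CPM (7.75). Their shares of all counts grew from 0.0053% and 0.0054% to 1.72% and 1.99% for S100a9, and from 0.0075% and 0.0069% to 1.35% and 1.41% for S100a8. Asprv1, a protease of mature neutrophils, rose by 8.39 ± 0.12. Il1r2, a decoy receptor for interleukin 1, rose from 3.77 and 3.61 to 272 and 298 CPM.

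The genes that rose most also formed runs along the genome. The stefin A locus encodes cysteine protease inhibitors and spans 298582 bases of chromosome 16 (mm10, 36156811 to 36455392). It held 10 tested genes, of which 9 rose, with a median of 7.12. Gm6815 was not called. BC100530 took the most reads, at 14 and 13.8 CPM with EtOH and 2795 and 3098 CPM with 4-OHT, and Stfa3 rose from 0.227 and 0.361 to 318 and 356 CPM. These copies are near-identical in sequence and how multi-mapping reads were treated was not given in the sources used here, so the split between them is uncertain. Across the S100 locus on chromosome 3 (90511034 to 93564643), 14 of 15 tested genes rose, with a median of 2.06, and S100a3 was not called. S100a6 rose from 19.7 and 23.5 to 465 and 514 CPM, S100a11 from 152 and 156 to 592 and 579 CPM, and S100a4 from 30.0 and 33.1 to 76.1 and 80.7 CPM. Of the membrane protein genes of the Ms4a cluster, 5 of 9 tested rose and 2 fell, of 15 listed (median 0.36). The rise of Ms4a2 was lost without EtOH library 1 (0.54), EtOH library 2 (0.45) or 4-OHT library 2 (0.33), and the fall of Ms4a4b without EtOH library 1 (-1.05) or 4-OHT library 2 (-0.96). All 5 tested genes of the Ly6 cluster were called higher, of 12 listed (median 1.07), with Ly6c2, a marker of myeloid cells with a close copy, going from 1065 and 1015 to 2296 and 2086 CPM. Of the 5 calls 3 held whichever library was left out: Ly6e was lost without EtOH library 2 (0.17) or 4-OHT library 1 (0.11), and Ly6a without EtOH library 1 (1.13) or 4-OHT library 1 (1.24).

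Transcription factors of the granulocyte lineage were mostly higher: 15 of 23 tested rose and 6 fell, of 24 listed, with a median of 0.83. Cebpe, which encodes C/EBP epsilon (chromosome 14, 54710360 to 54712174, minus strand), was at 60 and 65.1 CPM with EtOH and at 404 and 436 CPM with 4-OHT (2.74 ± 0.08, adjusted p = 2.87e-16). Cebpd rose from 37.2 and 34.1 to 118 and 117 CPM. Cebpa, which acts before Cebpe in the lineage, fell from 143 and 140 to 95.7 and 87.1 CPM (-0.64). Cebpe and Cebpd thus moved against Cebpa. The groups did not overlap in any of them, as was so in 81.1% of all tested genes. Mxd1, a MAX partner that opposes MYC, rose from 24.3 and 26.9 to 253 and 250 CPM (3.29), and Id2, an inhibitor of basic helix-loop-helix factors, from 7.45 and 8.57 to 101 and 103 CPM (3.67). Gfi1, a repressor required for neutrophil formation, rose from 159 and 164 to 298 and 307 CPM (0.91). Runx3 fell by 0.83.

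Among 25 monocyte transcription factors, all tested, 15 rose and 3 fell, with a median of 1.08. Klf6 rose from 26.7 and 27.2 to 131 and 143 CPM (2.34). Pparg rose from 13.8 and 15.6 to 43.5 and 38.1 CPM, and Irf1 from 17.1 and 17.6 to 37.4 and 42.1 CPM. Bhlhe41 rose from 0.749 and 0.741 to 7.29 and 6.10 CPM. Among the 3 that fell was Irf8, the factor that directs progenitors to monocytes and dendritic cells. It went from 64.2 and 71.3 to 33.0 and 31.8 CPM (-1.06). Spi1, which encodes PU.1, rose from 169 and 165 to 366 and 356 CPM (1.11).

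Genes of the MLL programme fell. All 10 tested HOXA genes fell, of 11 listed, with a median of -1.34, and within the locus on chromosome 6 (52155590 to 52245810) 11 of 14 tested genes fell, the non-coding Hotairm1, Hoxaas2 and Mir196b not being called. Hoxa9 went from 178 and 168 to 78.5 and 77.8 CPM (-1.14 ± 0.06, adjusted p = 2.02e-12). The calls of Hoxa4 and Hoxa2 each rested on 1 library, Hoxa4 being lost without 4-OHT library 1 (-0.81) and Hoxa2 without 4-OHT library 2 (-1.55). Of 20 other tested MLL fusion targets, of 21 listed, 18 fell and 1 rose, with a median of -1.73. Meis1, the HOXA9 cofactor, fell from 59.6 and 60.3 to 12.3 and 13.1 CPM (-2.24 ± 0.08), Mef2c from 226 and 232 to 30.8 and 30.8 CPM (-2.89), and Eya1 from 46.4 and 51.0 to 9.93 and 8.96 CPM (-2.37). Dach1 was the 1 member that rose, from 18.1 and 19.4 to 60.2 and 65.4 CPM. Both lists were drawn up with these changes known.

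Progenitor genes split by kind. Of 22 progenitor transcription factors, all tested, 12 fell and 3 rose, with a median of -0.79. Tcf4 fell by 1.92 on the log2 scale (-1.32 with the length and GC trends removed), Sox4 fell by 2.06, and Lmo2, an LIM-domain adaptor of blood progenitors, fell from 279 and 255 to 121 and 120 CPM. Of 15 tested progenitor surface markers, of 17 listed, 9 rose and 4 fell (median 0.44). Cd34 fell from 128 and 134 to 25.9 and 27.0 CPM (-2.30 ± 0.09), whereas Prom1, which encodes the stem cell marker CD133, rose from 12.4 and 12.8 to 107 and 117 CPM (3.15). Kit, the receptor for the SCF in the medium, was at 86.8 and 89.3 CPM with EtOH and 83.6 and 79.7 CPM with 4-OHT and was not called (adjusted p = 0.134).

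The machinery of neutrophil function was described next, beginning with the phagocyte NADPH oxidase, which makes superoxide in the phagosome. All 7 subunit genes rose, with a median of 1.35. Cybb, the catalytic gp91-phox, rose most, from 16.1 and 15.3 to 602 and 731 CPM (5.41 ± 0.11). Cyba, its membrane partner, rose from 261 and 261 to 880 and 897 CPM (1.77). Among the cytosolic subunits, Ncf4 rose by 2.18 and Ncf1 by 1.35. Rac2 rose by 0.84. Rac1 was at 338 and 343 against 383 and 361 CPM, a log2 difference of 0.13 whose adjusted p of 0.0474 rose above 0.05 when 4-OHT library 1 (0.09), EtOH library 1 (0.12) or EtOH library 2 (0.14) was left out.

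Chemoattractant receptors rose in 14 of 22 tested genes and fell in 2, of 23 listed, with a median of 2.84 (2.36 with genes at 0 at their bound). The fall of P2ry2, a nucleotide receptor, was lost without EtOH library 1 (-0.23) or 4-OHT library 1 (-0.35). C5ar1, the receptor for complement C5a, rose from 3.63 and 2.91 to 124 and 116 CPM (5.21), Cxcr2 from 1.70 and 1.99 to 43.6 and 43.7 CPM (4.55 ± 0.12), and Ccr1 from 6.72 and 7.81 to 149 and 148 CPM (4.35). Cx3cr1, a receptor of patrolling monocytes, fell from 2.50 and 1.94 to 0.296 and 0.0921 CPM (-3.47). Among 26 tested growth factor and cytokine receptors, of 28 listed, 18 rose and 5 fell (median 0.56). Csf3r, the G-CSF receptor, rose from 10.7 and 10.8 to 41.9 and 40.3 CPM (1.93), and Il6st, the shared gp130 chain, fell from 30.7 and 34.4 to 12.6 and 11.4 CPM (-1.43).

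Of 27 tested cytokine and chemokine ligands, of 30 listed, 22 rose and 1 fell, with a median of 3.07 (3.05 with genes at 0 at their bound). Ccl6, a myeloid chemokine, took the most reads, at 42.8 and 43.3 CPM with EtOH and 1909 and 1891 CPM with 4-OHT (5.46). Il1rn, the interleukin 1 receptor antagonist, rose from 3.25 and 3.78 to 152 and 154 CPM (5.44). Cxcl3, a neutrophil chemokine, had 0 counts in both EtOH libraries and 748 and 700 counts in the 4-OHT libraries, at least 514-fold higher against a floor of 3 counts over the EtOH group. Among enzymes, the phospholipase-like Plbd1 was likewise at least 251-fold higher and Pla2g7, a platelet-activating factor hydrolase, at least 234-fold. Il10 had 0 counts in all 4 libraries, which allows up to 0.0310 CPM in the EtOH group and 0.0331 CPM in the 4-OHT group (3 counts over the group, counting error only). Tgfb1 was the ligand that fell, from 399 and 377 to 308 and 270 CPM.

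Receptors of the innate immune surface moved mainly upward. Fc receptors and C-type lectins rose in 23 of 27 tested genes, of 29 listed, and fell in none (median 1.86). Clec4n, which encodes dectin 2, rose from 2.50 and 2.98 to 60.2 and 60.7 CPM, and Lilrb4a, an inhibitory receptor with close copies, from 38.8 and 39.9 to 590 and 610 CPM. Of 25 tested pattern recognition genes, of 26 listed, 19 rose and 1 fell (median 1.35). Tlr2 rose from 24.5 and 27.7 to 83.9 and 79.2 CPM, and Tlr9, the DNA sensor, fell from 0.749 and 0.779 to 0.127 and 0.184 CPM. Integrins and adhesion genes were mixed, with 12 of 24 higher and 8 lower (median 0.26). Itgam and Itgb2, the chains of the Mac-1 integrin, rose by 3.26 ± 0.10 and 2.25 ± 0.07, and Itga4, the VLA-4 chain that holds progenitors in the marrow, fell from 186 and 210 to 98.1 and 101 CPM (-0.99).

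Genes listed for monocytes and macrophages rose in 24 of 29 tested, of 32 listed, and fell in 3, with a median of 1.98. Their summed level was 1735 and 1771 CPM with EtOH and 5035 and 4686 CPM with 4-OHT. Spp1, osteopontin, rose from 36.7 and 43.8 to 524 and 480 CPM and Gpnmb from 12.5 and 15.5 to 204 and 179 CPM. Against these, C1qa, C1qb and C1qc, the complement genes of tissue macrophages, had 0 counts in all 4 libraries. Csf1r, the M-CSF receptor, was at 7.95 and 8.55 CPM and then at 15 and 12.2 CPM (0.72), and Ccr2, of classical monocytes, was not called (135 and 147, then 131 and 125 CPM). Several of these genes are also expressed by neutrophils, and the part of the culture's monocytes in the changes above was not tested.

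The nuclear envelope is remodelled as neutrophil nuclei become lobed. Of 16 listed genes of the lamina and envelope, 7 rose and 6 fell, with a median of -0.01. Lbr, the lamin B receptor whose loss prevents lobing, rose from 373 and 378 to 569 and 612 CPM (0.65). Sun2 rose from 245 and 256 to 805 and 799 CPM (1.68) and Syne1 from 11.3 and 12.7 to 80.9 and 78.4 CPM (2.73, or 3.75 with the length and GC trends removed). Lmnb1, lamin B1, fell from 385 and 377 to 252 and 258 CPM (-0.58), and Nup210, a nuclear pore protein, from 316 and 335 to 120 and 102 CPM (-1.55). Lmna rose from 13.7 and 15.3 to 37.1 and 32.1 CPM.

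Genes of the actin cytoskeleton and of migration rose in 26 of 34 and fell in 2, with a median of 0.59. Tmsb4x, the actin monomer-binding thymosin beta 4, rose from 1142 and 1111 to 5292 and 5577 CPM (2.27), and Cotl1 from 124 and 125 to 625 and 605 CPM. Fgr, a Src-family kinase of neutrophils, rose from 0.545 and 0.779 to 42.5 and 43.3 CPM (5.99). The 2 that fell were Wasf2 (-0.92) and Dock2 (-0.29, or 0.16 with the length and GC trends removed). Eicosanoid enzymes, which make leukotrienes and prostaglandins, rose in 13 of 16 tested, of 17 listed, and fell in 2 (median 1.92). Alox5 and its activating protein Alox5ap rose from 4.84 and 6.17 to 87.8 and 92.9 CPM (4.03) and from 126 and 125 to 732 and 718 CPM (2.53). Hpgd, which degrades prostaglandins, fell from 1670 and 1613 to 274 and 303 CPM (-2.51 ± 0.06). The other gene that fell was Ptges3, a prostaglandin E synthase, from 363 and 341 to 258 and 276 CPM (-0.40).

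DNA replication genes fell more often than they rose, most of them by small amounts: 26 of 41 fell and 4 rose, with a median of -0.20. Of 32 mitosis genes 12 fell and 7 rose (median -0.06), near the 32.1% that fell among all tested genes. Dnmt1, the maintenance DNA methyltransferase that acts at replication forks, fell from 423 and 434 to 220 and 195 CPM (-1.05). Pcna, the polymerase clamp, rose from 463 and 453 to 547 and 585 CPM (0.30). Mki67 fell from 348 and 405 to 214 and 199 CPM (-0.87), while Cenpa, the centromeric histone, rose from 138 and 135 to 199 and 200 CPM (0.55) and Nusap1 from 96.8 and 108 to 161 and 180 CPM (0.73). Members of each group therefore moved both ways. Of 50 tested replication-dependent histone genes, of 68 listed, 5 rose and none fell by the same test. The whole list summed to only 55.2 and 50.9 CPM with EtOH and 70.4 and 75.1 CPM with 4-OHT. Only 14 members reached a mean of 1 CPM with EtOH, which left little room to call a fall in the others.

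Regulators of the cell cycle moved more. Of 27 cyclins, CDKs and inhibitors 16 rose and 8 fell (median 0.58). The CDK inhibitors Cdkn2d (p19), Cdkn1a (p21) and Cdkn1b (p27) rose by 2.08, 1.76 and 1.09, with Cdkn1a going from 110 and 123 to 407 and 384 CPM. Cdkn2c (p18) fell from 168 and 160 to 44.3 and 41.4 CPM (-1.94). Cdk6 fell from 66.1 and 74.7 to 28.1 and 26.2 CPM, and Cdk4 from 532 and 524 to 349 and 350 CPM. Btg2, an antiproliferative factor, rose from 5.72 and 5.28 to 33.6 and 36.9 CPM (2.68). E2f2, of the same list, rose from 21.7 and 22.6 to 77.6 and 72.7 CPM (1.76). Of the 4 inhibitors named 3 rose, while both kinases named fell. Of these, Cdkn1b and Cdk4 were picked after their values were seen.

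In the BCL2 family 13 of 19 tested genes rose and 4 fell, of 20 listed (median 0.68). Bcl2 fell from 44.1 and 40.4 to 6.00 and 8.15 CPM (-2.58 ± 0.13), whereas Mcl1, the survival factor of neutrophils, rose from 219 and 223 to 464 and 503 CPM (1.13) and Bcl2a1b from 1.04 and 1.46 to 26.8 and 27.2 CPM (4.41). The Bcl2a1 genes are near-identical copies, and the split of reads between them is uncertain. Of 32 tested p53 targets, of 33 listed, 23 rose and 6 fell (median 0.60), while Trp53 itself fell from 210 and 201 to 103 and 91.4 CPM (-1.08). Trp53inp1 rose from 9.95 and 8.81 to 79.1 and 85.4 CPM (3.14) and Fas from 2.75 and 2.98 to 17.7 and 19.7 CPM.

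The genes of ribosome parts and of ribosome assembly went opposite ways. All 41 ribosome biogenesis and MYC growth genes fell, with a median of -0.87 and a summed level of 14648 and 14214 CPM with EtOH and 7316 and 7222 CPM with 4-OHT. Of 82 tested cytosolic ribosomal protein genes, of 85 listed, 69 rose and 1 fell, with a median of 0.40, and the sum went from 71698 and 69372 to 94663 and 92712 CPM. Ribosomal protein mRNAs are short, and with the length and GC trends removed their median was 0.18. Fau, the small-subunit protein made as a ubiquitin-like fusion, rose from 438 and 432 to 875 and 875 CPM (1.01). Cad, which starts pyrimidine synthesis, fell from 297 and 299 to 54.4 and 48.3 CPM (-2.54), and Utp20, of the small-subunit processome, from 132 and 131 to 27.8 and 25.8 CPM (-2.29). Rpl30 was the ribosomal protein gene that fell, from only 1.29 and 1.31 CPM. Such low values are unusual for these genes, which have many near-identical copies, and were not examined further.

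**Figure D2:**
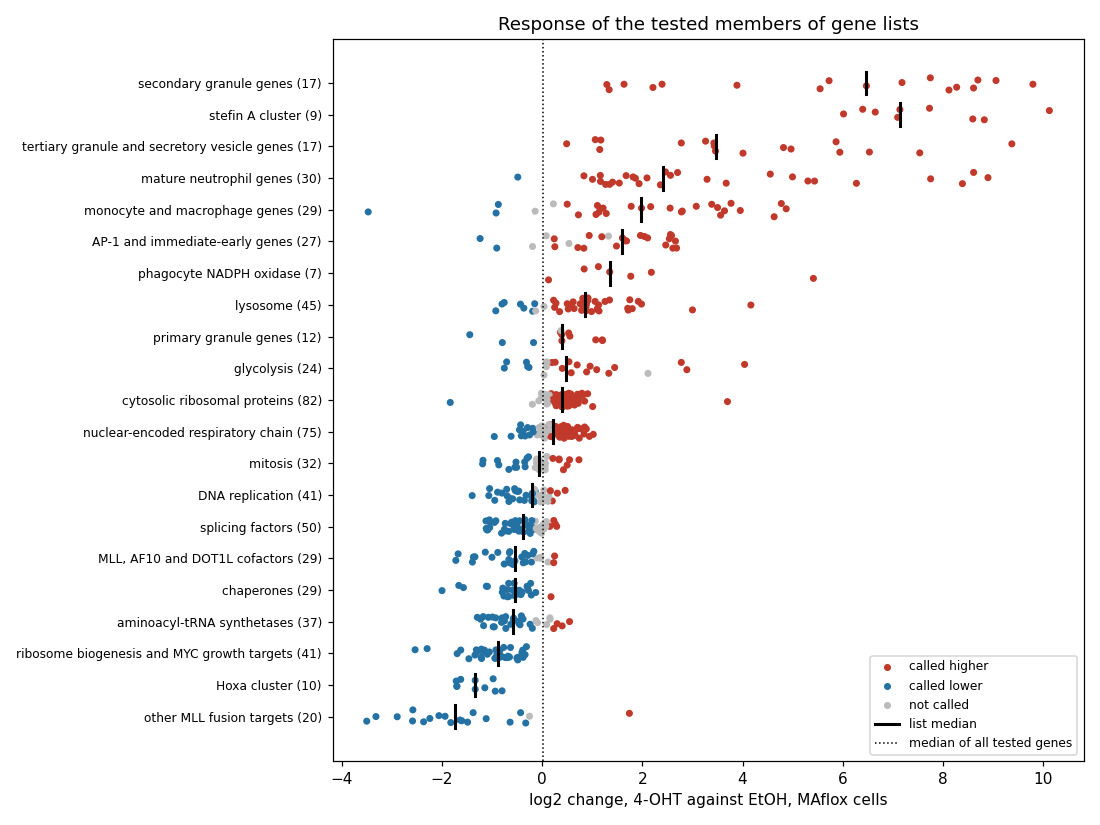
Log2 change (4-OHT minus EtOH) of each tested member of selected gene groups, 1 point a gene, red where called higher, blue lower and grey not called. A black bar marks the median of all tested members, a dotted line that of all tested genes, and members at 0 counts in a whole group are left out of the points. Secondary granule genes lie far to the right at a median of 6.47, ribosomal proteins sit at 0.40 and ribosome biogenesis genes at -0.87.

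Other parts of protein synthesis fell. Translation factors fell in 34 of 61 tested and rose in 14, of 64 listed (median -0.22). Eif4g1, the scaffold of cap-dependent initiation, fell from 991 and 997 to 410 and 379 CPM (-1.33), and Eif3h rose by 0.59. Aminoacyl-tRNA synthetases fell in 28 of 37 and rose in 4 (median -0.58), and Dars rose from 296 and 300 to 416 and 456 CPM. Chaperones fell in 27 of 29 tested and rose in 1, of 30 listed (median -0.55). Hspd1, the mitochondrial HSP60, fell from 1265 and 1192 to 405 and 371 CPM (-1.66) and Calr by 0.79 on the log2 scale. The chaperone that rose was Dnajb1, by 0.18, a call lost without EtOH library 1 (0.12) or 4-OHT library 2 (0.14). Mitochondrial ribosomal proteins were mixed, with 16 of 76 higher and 27 lower (median -0.09), as were proteasome genes, with 13 of 38 tested higher and 10 lower, of 39 listed (median 0.04). Of 50 tested splicing factors, of 52 listed, 34 fell and 4 rose (median -0.38), Sf3b3 falling from 447 and 434 to 208 and 199 CPM.

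Energy metabolism shifted by pathway. Glycolysis genes rose in 14 of 24 and fell in 5, with a median of 0.47, and their summed level went from 12537 and 13706 to 21249 and 21488 CPM. Slc2a3, the high-affinity glucose transporter GLUT3, rose from 14.1 and 18 to 254 and 276 CPM (4.04 ± 0.15). Aldoc rose from 13.9 and 17.2 to 119 and 112 CPM (2.89) and Pgk1 from 892 and 1036 to 2599 and 2659 CPM (1.45). The 2 EtOH libraries differed somewhat in several of these genes, library 2 being the higher, but stayed below both 4-OHT libraries. Slc16a1, a lactate carrier, fell by 0.76. In the list of TCA cycle and glycogen genes 12 of 25 fell and 7 rose (median -0.20), and Pygl, the glycogen phosphorylase of liver and neutrophils, rose from 219 and 246 to 946 and 968 CPM (2.04). Nuclear-encoded respiratory chain genes rose in 46 of 75 tested and fell in 11 (median 0.21), of 76 listed, but their median was 0.01 with the length and GC trends removed. Sdha, the flavoprotein of complex II, fell from 348 and 335 to 181 and 171 CPM (-0.95).

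Synthetic pathways were lower in part. Serine, one-carbon and amino acid genes fell in 18 of 29 and rose in 7 (median -0.35). Bcat1, which transaminates branched-chain amino acids, fell from 80.8 and 85.7 to 20.7 and 19.9 CPM (-2.04), and Shmt2, of mitochondrial folate metabolism, from 500 and 501 to 219 and 207 CPM (-1.23). Of 32 sterol and fatty acid genes 15 fell and 12 rose (median -0.06). Fasn, fatty acid synthase, fell from 554 and 593 to 139 and 109 CPM (-2.21 ± 0.09, or -1.53 with the length and GC trends removed) and Elovl6 from 96.0 and 98.9 to 33.7 and 34.1 CPM. Fdps, of isoprenoid synthesis, rose from 275 and 265 to 700 and 662 CPM (1.34), and Abcg1, a sterol exporter, from 19.6 and 21.4 to 89.4 and 80.9 CPM. The fatty acid and the isoprenoid branches thus differed in direction in these genes.

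Lysosome genes rose in 36 of 45 and fell in 7, with a median of 0.86. Ctsd and Ctsb, lysosomal proteases, rose from 503 and 510 to 1959 and 1871 CPM (1.92) and from 163 and 168 to 555 and 556 CPM (1.75). Gusb fell from 438 and 412 to 233 and 214 CPM (-0.92). Autophagy genes rose in 17 of 26 and fell in 5 (median 0.40), with Map1lc3b, the LC3B gene, going from 67.1 and 69.3 to 183 and 192 CPM. Of 26 tested iron and heme genes, of 27 listed, 18 rose and 5 fell (median 0.61). Slc40a1, the iron exporter ferroportin, rose from 5.47 and 6.72 to 141 and 146 CPM (4.55), and Fth1, ferritin heavy chain, from 852 and 834 to 2707 and 2425 CPM (1.61).

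Interferon response genes rose in 27 of 36 tested and fell in 4, of 40 listed (median 1.23). Zbp1, a sensor of nucleic acids, rose from 1.04 and 0.779 to 9.24 and 8.57 CPM, and Gbp3 fell from 26.9 and 21.1 to 8.60 and 8.73 CPM. Antigen presentation genes rose in 14 of 22 tested and fell in 6, of 24 listed (median 0.53). Cd74 rose from 4.75 and 5.26 to 20.1 and 18.4 CPM. AP-1 and immediate-early genes rose in 21 of 27 and fell in 2 (median 1.602), and Nfkbia, which encodes an NF-kappa B inhibitor, rose from 32.7 and 32.4 to 209 and 209 CPM (2.68).

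Chromatin regulators were mostly lower. Their lists had longer genes than the median of 4265 exon bases over all tested genes, except the TIP60 complex list at 3639. Among 29 MLL, AF10 and DOT1L cofactors 23 fell and 2 rose, with a median of -0.54 that became -0.29 with the length and GC trends removed. The rise of Ell, an elongation factor, was lost without EtOH library 1 (0.22) or 4-OHT library 2 (0.222). Dot1l, the H3K79 methyltransferase that AF10 recruits, fell from 65.1 and 65.5 to 25.3 and 24.5 CPM (-1.39), and Hcfc1 from 289 and 310 to 96.5 and 85.1 CPM (-1.72). Of 21 TIP60 complex genes 11 fell and 6 rose (median -0.18, or -0.26 with the trends removed). Trrap and Ep400, its largest subunits, fell by 1.46 and 1.44 on the log2 scale (-0.62 and -0.81 with the trends removed), and H2afv, a histone variant it exchanges, rose from 46.5 and 41.7 to 102 and 103 CPM (1.22). Acetyltransferases and deacetylases fell in 18 of 28 and rose in 3 (median -0.35, or -0.20 with the trends removed). Kat2a (GCN5) went from 109 and 100 to 35.3 and 33.9 CPM. Of 36 polycomb genes 20 fell and 9 rose, with a median of -0.32 that became 0.00 with the trends removed. For the 15 tested DNA methylation and TET genes, of 16 listed, 9 of which fell and 4 rose, the median moved from -0.71 to -0.26.

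The median change differed by gene length. By quintile of exon length, the shortest genes had a median log2 change of 0.33 (up to 2300 bases, 1125 higher and 374 lower), then 0.12, 0.01 and -0.07, and -0.30 in the longest (7354 bases or more, 572 higher and 1339 lower). The same medians in MATIP cells were 0.06, -0.04, -0.01, 0.01 and 0.03. A smaller decline was also seen between the 2 MAflox EtOH libraries. There the medians of library 1 minus 2 were 0.032, 0.005, -0.001, -0.018 and -0.056. Between the 2 MAflox 4-OHT libraries these medians lay between -0.002 and 0.010. RNA integrity was not given in the sources used here, and the part of RNA quality in the length trend was not tested.

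**Figure D3:**
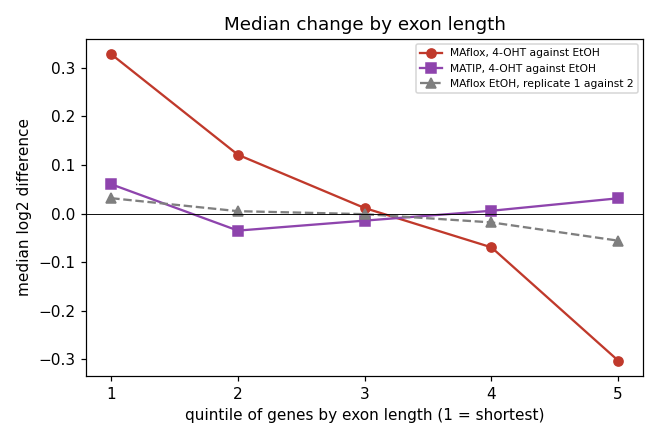
Median log2 change (4-OHT minus EtOH) by quintile of exon length in MAflox cells, in MATIP cells and between the 2 MAflox EtOH libraries (library 1 minus 2). The MAflox median declines from 0.33 in the shortest genes to -0.30 in the longest.

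Markers of other cell types were low. Of 10 tested eosinophil markers, of 11 listed, 8 rose, and their sum went from 8.11 and 9.50 to 54.5 and 82.8 CPM. The 4-OHT libraries were unequal here, Prg2 being at 22.4 and 41.8 CPM and Epx at 7.99 and 14.4 CPM. Mast cell and basophil markers summed to 141 and 144 CPM with EtOH and 145 and 143 CPM with 4-OHT, most of it Kit (8 of 10 tested were called higher and 1 lower, of 14 listed). Only 4 of those 8 calls held whichever library was left out: Ms4a2 was lost without EtOH library 1 (0.54), EtOH library 2 (0.45) or 4-OHT library 2 (0.33), Mcpt8 without EtOH library 2 (0.17), 4-OHT library 1 (0.29) or 4-OHT library 2 (0.299), Cma1 without EtOH library 1 (1.98), EtOH library 2 (3.26) or 4-OHT library 2 (1.85), and Cd200r3 without EtOH library 1 (2.16) or 4-OHT library 1 (2.43). Erythroid markers summed to 359 and 375 and then 389 and 426 CPM, nearly all of it Tfrc, which dividing cells express. Of 6 tested, 2 were called higher and 1 lower, of 15 listed. Both higher calls were lost with a library left out, Tfrc without EtOH library 1 (0.13) or 4-OHT library 2 (0.11) and Epor without EtOH library 1 (1.56), EtOH library 2 (1.998) or 4-OHT library 2 (1.30). Hba-a1, Hba-a2, Hbb-bs, Hbb-bt and Slc4a1 had 0 counts in all 4 libraries. Dendritic cell markers summed to 57.3 and 59.2 and then 75.0 and 70.0 CPM (5 of 10 tested rose, 1 fell, 15 listed), megakaryocyte markers to at most 12.9 CPM (5 of 9 rose, 12 listed), B cell markers to at most 14 CPM (3 of 7 rose, 12 listed) and stromal and endothelial markers to 91.0 and 93.4 and then 85.1 and 76.1 CPM (4 of 10 rose, 2 fell, 16 listed). T and NK cell markers summed to 74.4 and 72.8 and then 145 and 141 CPM, nearly all of it Nkg7 (66.8 and 65.2, then 137 and 133 CPM), a granule gene also seen in myeloid cells. Single calls were also lost in the dendritic list (Bst2 without EtOH library 2, 0.20, or 4-OHT library 1, 0.19), the megakaryocyte list (Gp9 without EtOH library 1, 1.83, or 4-OHT library 2, 2.47) and the stromal list (Pdgfra without any library but 4-OHT library 1, from 0 to 5.34). The part of such cells in the changes above was not tested. The pan-leukocyte and myeloid genes rose in 9 of 12 and fell in 2.

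Because 4-OHT binds the estrogen receptor, its targets and drug-metabolising genes were listed too. Of 22 tested, of 26 listed, 10 rose and 7 fell, with a median of 0.21. These shares, 45.5% that rose and 31.8% that fell, stood beside 33.1% and 32.1% of all tested genes. Esr1 itself was at 7.40 and 6.74 CPM with EtOH and 5.07 and 6.91 CPM with 4-OHT and was not called (adjusted p = 0.19). Igfbp4 fell from 661 and 650 to 304 and 293 CPM (-1.14), Nqo1 rose from 17.0 and 18.7 to 76.2 and 80.1 CPM (2.13), and Abcb1b, a drug efflux pump, fell from 25.9 and 23.6 to 2.73 and 3.48 CPM (7.99-fold lower). The labels give no MAflox culture that separates an effect of 4-OHT on the cells from one of a floxed element, so these cannot be told apart.

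The response of MAflox cells differed from that of MATIP cells in 8491 genes by the test of the difference (61.9%), 33.6% with the MAflox change more positive and 28.3% more negative. In 12.1% of the tested genes the cells changed in opposite directions. The secondary granule genes rose more in MAflox cells in 12 of 17 and less in 4, with medians of 6.47 in MAflox and 4.72 in MATIP cells. Camp changed by 8.70 in MAflox and 3.13 in MATIP cells and Ltf by 9.79 and 6.45, whereas Mmp8 changed by 2.21 and 6.09 and Chil3 by 5.55 and 7.52. Cebpe rose by 2.74 in MAflox cells against a difference of 0.10 in MATIP cells, and Cebpd by 1.72 against 0.08. By contrast, tertiary granule genes changed less in MAflox cells in 11 of 17 and more in 3 (medians 3.46 and 5.26), and monocyte and macrophage genes less in 22 of 29 and more in 4 (1.98 and 3.94). Secondary granule genes and macrophage genes thus differed from the MATIP response in opposite senses.

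Proliferation and growth genes separated the cells further. The replication genes had a median of -0.20 in MAflox and -1.09 in MATIP cells, with the MAflox change more positive in 37 of 41, and the mitosis genes -0.06 and -1.18, more positive in 29 of 32. Cytosolic ribosomal proteins had medians of 0.40 and -1.02, more positive in 81 of 82, and ribosome biogenesis genes -0.87 and -1.64, more positive in 30 of 41 and more negative in 2. HOXA genes had medians of -1.34 and -1.27, with a called difference in 3 of 10. For the other MLL fusion targets the medians were -1.73 and -0.29, with the MAflox change more negative in 15 of 20 and more positive in 2. Meis1 changed by -2.24 in MAflox and -0.63 in MATIP cells, a difference of -1.61. Glycolysis genes had medians of 0.47 and -0.40, with the MAflox change more positive in 17 of 24 and more negative in none.

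**Figure D4:**
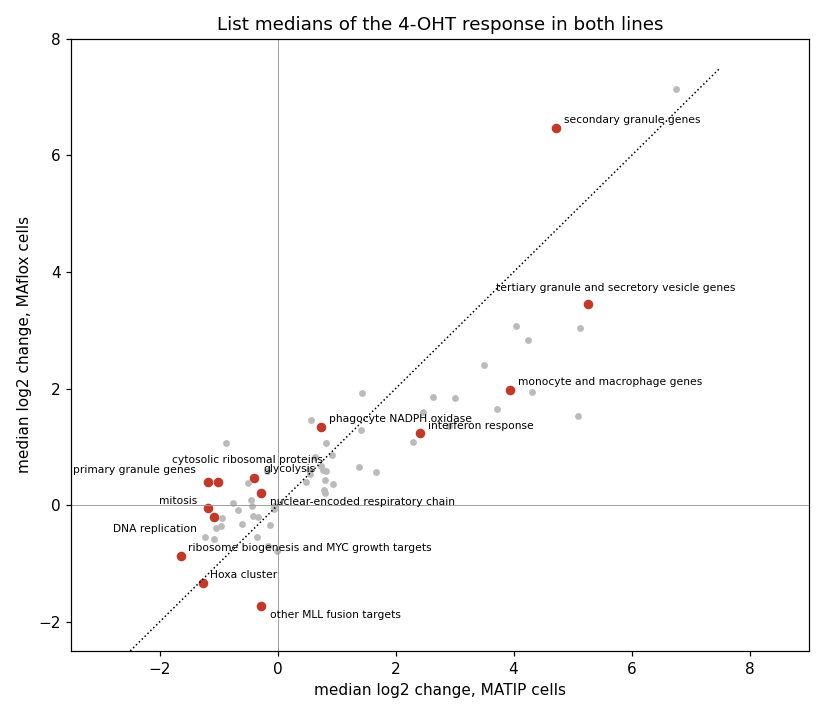
Median log2 change (4-OHT minus EtOH) of each gene group in MATIP cells (horizontal) against MAflox cells (vertical), 1 point a group, red where labelled, with equality as a dotted line. Ribosomal proteins lie at 0.40 in MAflox and -1.02 in MATIP cells, the MLL targets outside HOXA at -1.73 and -0.29, and the HOXA genes near the diagonal.

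The libraries of a group differed little beside these changes. The SD of the log2 difference between replicates was 0.167 in the EtOH group and 0.153 in the 4-OHT group over 9806 genes. Housekeeping genes were not stable as a group: of 20, 9 rose and 5 fell, with log2 differences from -1.56 to 1.45. Tbp and Ywhaz, often used as references and picked after their values were seen, were at 0.01 and -0.06 and were not called. Counts still varied beyond sampling noise, with a chi-square per degree of freedom of 7.09 and 9.70. Of the 10 genes farthest apart between the EtOH libraries all were also called higher with 4-OHT and 8 were higher in EtOH library 2; among them Thbs1, thrombospondin 1, was at 30.3 and 52.8 CPM and then at 316 and 259 CPM. Of the 10 farthest apart between the 4-OHT libraries 8 were called lower and 2 higher. These included Lars2, a mitochondrial leucyl-tRNA synthetase, at 228 and 387 CPM with 4-OHT against 237 and 229 CPM with EtOH.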

How the data were processed

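Per the submitters' processing notes, reads were trimmed with Trimmomatic 0.38.0, aligned to mm10 with HISAT2 2.1.0, counted with featureCounts 1.6.4 and compared with DESeq2. The authors deposited raw counts per gene, used here as whole numbers; none of their fold changes or p-values were used. Strandedness and the treatment of multi-mapping reads were not given in the sources used here. Counts of all 8 libraries were fitted together in edgeR 4.0.16 (R 4.3.3; TMM scaling, genes kept by filterByExpr with a minimum count of 10 and a total of 15, quasi-likelihood test, Benjamini-Hochberg adjustment over 13722 genes, threshold 0.05, 2-sided, 4 residual degrees of freedom), and the MAflox contrast and its difference from the MATIP contrast were tested. The table also held 23 empty columns. Trends in exon length and GC content were removed as an alternative. DESeq2 1.42.0, other scalings and filters, a replicate block and leaving out each library were also tried. The code was tested on simulated data. Members and gene lists were chosen with earlier results of these data known. Named genes were drawn from the tested members of lists of 12 or fewer. From longer lists they were the 4 with the smallest p and 2 of the rarer direction. Others were picked for extreme values: the largest rises and falls, the largest gains and losses in CPM, and the highest levels. Genes at 0 counts in a group, those with replicates farthest apart and those changing oppositely in MATIP cells were also picked. Chosen after their values were seen were Ccr2, Cdk4, Cdkn1b, Chil3, Csf1r, Esr1, Gfi1, Hp, Il10, Lbr, Mmp8, Tbp and Ywhaz, as well as genes named at 0 counts and the uncalled genes of a locus. A few genes are not reported here.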

Additional observations from a re-analysis of the deposited data

Results flagged for a closer look

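Each result here was picked because the test of the difference between the MAflox and the MATIP response to 4-OHT passed the threshold. They are the genes described at the head of the report and genes that were called in opposite directions in the 2 kinds of cells, which leaves out larger differences between changes of the same sign. Values are log2 changes, MAflox minus MATIP, ± SE. Kat5 differed by 2.82 ± 0.11 (0.50 in MAflox and -2.32 in MATIP cells), Kmt2a by -1.53 ± 0.21, Mllt10 by 0.56 ± 0.09, Hoxa9 by 0.23 ± 0.08 and Meis1 by -1.61 ± 0.11. Hoxa9 fell in both, by 1.14 and 1.37 on the log2 scale.

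Among genes more positive in MAflox cells, Prss57, a serine protease of primary granules, differed by 3.16 ± 0.11: it rose in MAflox cells from 60.8 and 58.3 to 141 and 133 CPM and fell by 1.96 on the log2 scale in MATIP cells. Lin28a, an RNA-binding protein of early development, differed by 3.71 ± 0.12, having risen in MAflox cells from 4.79 and 5.24 to 49.2 and 53.1 CPM. Cyp11a1, the first enzyme of steroid synthesis, differed by 3.33 ± 0.12 and rose from 18.2 and 21.3 to 125 and 118 CPM in MAflox cells. Gatm, of creatine synthesis, differed by 3.23 ± 0.10 and rose from 63.5 and 67.3 to 216 and 229 CPM. Stc2 differed by 3.74 ± 0.18, Fam69b by 3.78 ± 0.15 and 2410006H16Rik by 3.07 ± 0.13. Eif2s3y, at 4.31 ± 1.62, had few counts in MATIP cells and the least precise value. Its MATIP change of -3.96 ± 1.63 rests on those counts, so it gives no firm difference between the responses.

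Among genes more negative in MAflox cells, Il6st differed by -3.47 ± 0.13, at -1.43 in MAflox and 2.04 in MATIP cells. Lrp1 differed by -3.45 ± 0.16, Itgb7 by -3.69 ± 0.20, Maoa by -3.74 ± 0.15 and Atp13a2 by -3.47 ± 0.11. Plec, Tns1 and Dst, which link the cytoskeleton to adhesion sites, differed by -3.34 ± 0.11, -2.94 ± 0.16 and -2.83 ± 0.18. Their MAflox changes were -1.48, -2.16 and -1.15, and -0.47, -1.36 and -0.16 with the trends in exon length and GC content removed. The MAflox change of Lrp1 was -0.28, or 0.62 with the trends removed. The causes of these differences were not tested.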

How the results depend on the processing

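Tested against a 1.5-fold change, 2170 genes rose and 1742 fell. Without 1 library in turn the counts lay between 4088 and 4197 for genes that rose, 3978 and 4082 for those that fell, 1792 and 1815 for those that rose at least 2-fold, 992 and 1181 for those that fell at least 2-fold, and 7873 and 8095 for genes whose response differed from that of MATIP cells. DESeq2 called 4363 higher and 4236 lower, and a fit of the 4 MAflox libraries alone 4574 and 4352. Replicate numbers did not pair the libraries (correlation of deviations -0.002 in MAflox and -0.039 in MATIP cells); with a replicate block 4349 rose and 4292 fell, 1775 and 1100 at least 2-fold, and 8150 differed between the cells. With the trends in exon length and GC content removed, 260 of 460 named genes moved by more than 1 SE without changing sign, and Dock2 (0.16), Mcpt8 (-0.052), Bst2 (-0.085), Lrp1 (0.62) and Ptprs (0.17) changed sign, and without 1 library in turn Lars2 ranged from -0.012 (without 4-OHT library 2) to 0.73 and Pdgfra, with 9 counts in all, from 0 (without 4-OHT library 2) to 6.35; the cause was not tested. With 2 libraries a group, precision is limited by their spread, and genes at a few counts give no firm fold.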
